A study of Caenorhabditis elegans with 6 samples.

Results

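Levels of 9 transcripts encoding histone methyltransferases, readers of methylated histones and repressors were followed in *C. elegans* germlines that had inherited chromosomes from sperm only, and in the next generation. The genes were picked by their sequence names in the count tables, not by their values, out of 45461 genes listed there: *set-2* (C26E6.9), *met-1* (C43E11.3), *mrg-1* (Y37D8A.9), *met-2* (R05D3.11), *set-25* (Y43F4B.3), *set-32* (C41G7.4), *hpl-2* (K01G5.2), *lin-61* (R06C7.7) and *lin-35* (C32F10.2). Earlier results of these data were known when the choice was made. All 9 passed the filter on low counts and were among the 8117 genes tested. None of them passed the test between any pair of groups.

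The groups were “red-head” F1 germlines, germlines of F2 worms descended from “red-head” mothers (called offspring here), and control germlines, with 2 libraries per group and 6 in all. The germlines of all 3 groups had the genotype of the strain HBR1280, whose insertion oxTi75 carries unc-18(+) and a fusion of GFP to histone H2B, driven by the ubiquitous eft-3 promoter and ending in the tbb-2 3'UTR. Mothers of “red-head” worms were HBR1281 hermaphrodites, with oxTi411 on chromosome III, which carries Cbr-unc-119(+) and a fusion of TdTomato to H2B between the eft-3 promoter and the unc-54 3'UTR, and with ddIs32, a transgene that supplies YFP-tagged GPR-1 made from a synthetic coding sequence. They were crossed with HBR1280 males, and the excess GPR-1 in the egg keeps the parental chromosomes apart when the embryo divides, so that the germline can receive the sperm-derived set alone. The label of “red-head” replicate 2 lists the same strains as replicate 1 but not the sex of each parent. Parents of the F2 worms were “red-head” hermaphrodites, and parents of the controls were HBR1280 hermaphrodites. Worms were grown at 24° and gonads were dissected on day 1 of adulthood. Each library pooled distal arms cut at the gonad bend, in late pachytene, so mature oocytes were left out and gonadal sheath cells could be included.

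Histone methylation in this germline falls into marks of transcription and marks of repression. Methylation of H3 on lysine 4 and lysine 36 accompanies expressed genes, and the lysine 36 mark is carried through mitosis and meiosis by a pair of enzymes, one of which acts with transcription and one of which copies the mark. Methylation on lysine 9 is placed on repeats and silent genes, is bound by HP1-type and MBT-repeat proteins, and anchors chromatin at the nuclear periphery. The retinoblastoma-like protein acts in the DRM complex to repress cell-cycle and germline genes in the soma.

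Reads counted on genes came to 11310273 and 2721055 for “red-head”, 7150847 and 3673141 for offspring, and 7469633 and 4980329 for control replicates 1 and 2. The 12 germline markers were all detected, and their summed level was 6764 and 8060 CPM (counts per 1000000 gene counts, scaled by TMM) in “red-head”, 8748 and 9174 in offspring and 8177 and 7931 in control libraries. The 9 oogenesis markers summed to between 14700 and 17790 CPM and the 10 spermatogenesis markers, of which 2 were tested, to between 5.94 and 14.1 CPM. Markers of the intestine, 7 of 12 tested, summed to 2581 and 4664 CPM in “red-head”, 871 and 146 in offspring and 340.0 and 255 in control libraries. Summed markers lay between 39.1 and 216 CPM for body wall muscle, 19.02 and 46.8 CPM for hypodermis, 9.77 and 13.04 CPM for neurons and 24.9 and 80.1 CPM for gonadal sheath. No marker was at 0 in every library. Fewer cells of a type and less RNA per cell cannot be told apart in such libraries. A tag in the library names is shared by offspring replicate 1 with control replicate 1, and another by “red-head” replicate 2 with offspring replicate 2. What the tag marks is not given in the sources used here.

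At an adjusted p of 0.05, 0 of the 9 genes were called in “red-head” germlines against control, where 0.0% of all tested genes were called, 0 in offspring against control, where 0.123% were, and 0 in “red-head” against offspring, where 0.0123% were (quasi-likelihood test in edgeR, adjusted after Benjamini and Hochberg). At an unadjusted p under 0.05 the count was again 0 of 9 in each comparison, beside 7.65%, 1.29% and 10.2% of all tested genes. DESeq2 called 0 of the 9 in each comparison, also at an unadjusted p under 0.05. All 27 intervals of the fold changes, 95% each, included no change.

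**Figure D1:**
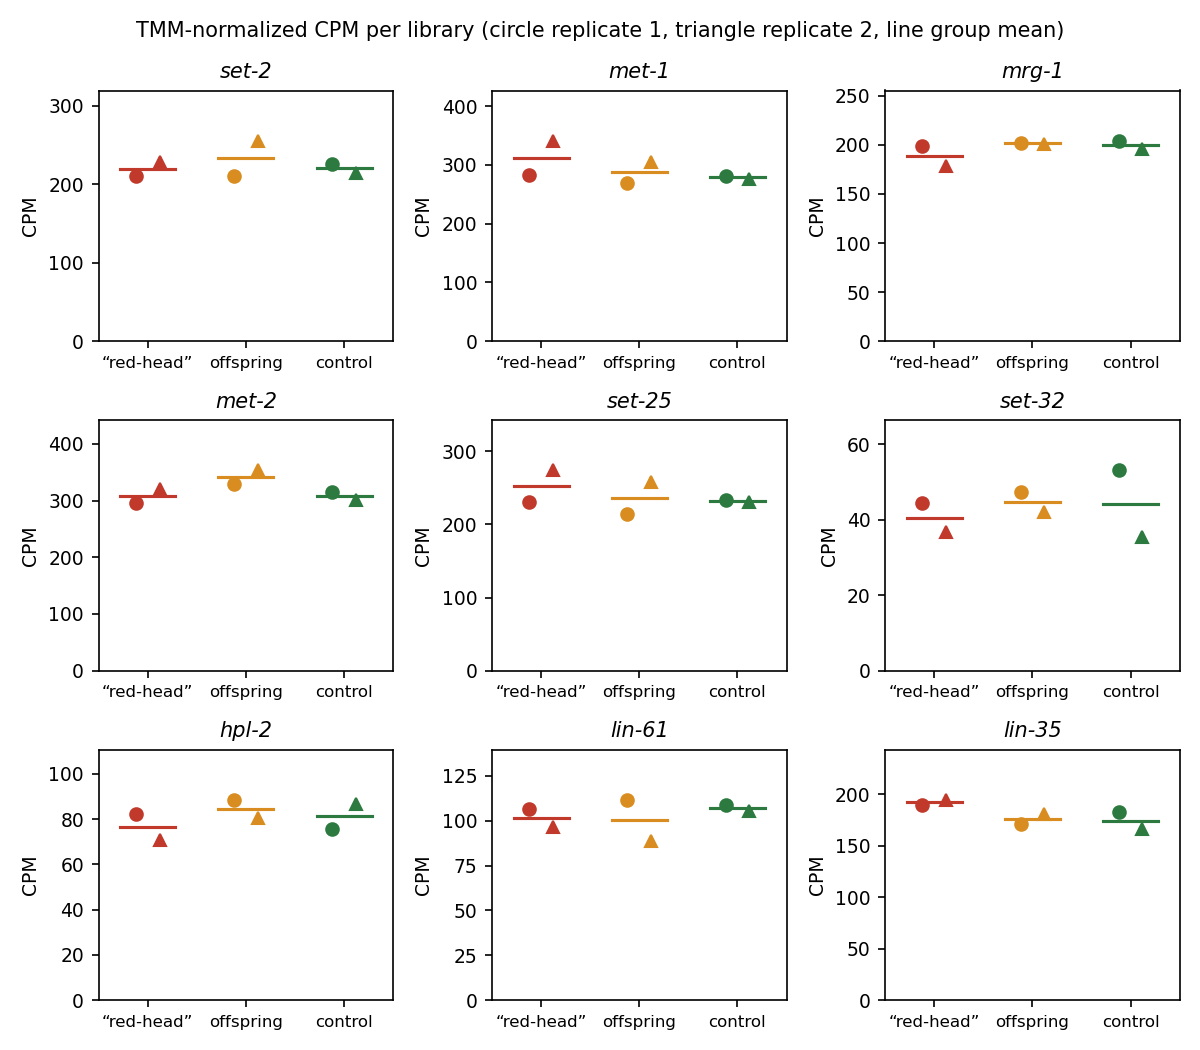
TMM-normalized CPM of each of the 9 genes (vertical axes, each starting at 0) in “red-head”, offspring and control libraries, with a circle for replicate 1, a triangle for replicate 2 and a line at the mean of the 2. Groups overlap in most panels; *set-32* in control has the widest gap between replicates as a ratio, with 53.1 and 35.3 CPM.

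The gene *set-2* on chromosome III encodes the catalytic subunit of COMPASS, the complex that methylates H3 on lysine 4, and is needed for lasting fertility over generations. It had 211 and 228.5 CPM in “red-head”, 211 and 255 in offspring and 226 and 215 in control libraries. The offspring libraries held both the second lowest and the highest value, so the groups overlapped. The log2 fold change was -0.0066 (standard error 0.12, 95% interval -0.28 to 0.27) in “red-head” germlines against control and 0.079 (-0.20 to 0.36) in offspring germlines against control. The spliced gene is 5475 nucleotides long over all exons, with 3 annotated transcripts and 1510 residues in the longest product.

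The H3 lysine 36 pathway was represented by *met-1*, the methyltransferase that acts during transcription, and by *mrg-1*, a chromodomain protein that binds the mark and is needed for survival of germ cells. On chromosome I, *met-1* had 283 and 341 CPM in “red-head”, 269.8 and 305 in offspring and 282 and 277 in control libraries. Both “red-head” values were above both control values, replicate 1 by less than the gap between the control replicates. The log2 fold change was 0.16 (standard error 0.12, 95% interval -0.13 to 0.44, adjusted p = 0.842 in edgeR's quasi-likelihood test), the largest size among the 9 genes in this comparison. Without “red-head” replicate 2 it was 0.023, and without “red-head” replicate 1 it was 0.30. In offspring germlines it was 0.040 (-0.25 to 0.33).

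On chromosome III, *mrg-1* had 199 and 178 CPM in “red-head”, 202 and 201 in offspring and 204 and 196 in control libraries. This was the narrowest spread of the 9, with a ratio of 1.146 between the highest and the lowest library. The log2 fold change was -0.083 (95% interval -0.31 to 0.14) in “red-head” and 0.012 (-0.21 to 0.24) in offspring germlines against control. Between the generations both “red-head” values lay below both offspring values, with a log2 fold change of -0.095 (-0.32 to 0.13, adjusted p = 0.774 in the same edgeR test). The interval of the fold in “red-head” germlines against control ran from 0.807 to 1.10.

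The H3 lysine 9 methyltransferases were *met-2*, a SETDB1 relative that places the first methyl groups, and *set-25*, which completes trimethylation. Described with them is *set-32*, a SET-domain protein with a part in establishing small RNA-guided silencing. The gene *met-2*, on chromosome III, had the most reads of the 9 in every library but “red-head” replicate 2: 295 and 319.5 CPM in “red-head”, 329 and 354 in offspring and 316 and 302 in control libraries. Both offspring values were above all 4 others. The log2 fold change was 0.14 in offspring against control (standard error 0.10, 95% interval -0.091 to 0.38, adjusted p = 0.999) and -0.15 in “red-head” against offspring (standard error 0.10, interval -0.39 to 0.083, adjusted p = 0.648), both from the edgeR fit. In “red-head” against control it was -0.0091 (-0.24 to 0.23).

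On the same chromosome, *set-25* had 230.1 and 274 CPM in “red-head”, 213.5 and 258 in offspring and 233 and 230.1 in control libraries. The control libraries differed little, and in each of the other groups 1 library lay above both and 1 lay close to or below the lower one. The log2 fold changes were 0.12 (95% interval -0.19 to 0.43) in “red-head” and 0.025 (-0.28 to 0.33) in offspring germlines against control. Of its exons, 64 nucleotides, or 2.29%, overlap *unc-64* and 21 overlap a piRNA gene, each on the opposite strand. Reads in such shared bases cannot be told apart with a library kit that does not mark strand. Ambiguous reads were held apart from the gene counts and dropped, so shared bases need not add to the count of *set-25*.

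The lowest counts of the 9 belonged to *set-32* on chromosome I, from 99 in “red-head” replicate 2 to 533 in “red-head” replicate 1. It had 44.3 and 36.8 CPM in “red-head”, 47.2 and 42.0 in offspring and 53.1 and 35.3 in control libraries. Both the highest and the lowest value came from control, and their 95% Poisson intervals, 48.0 to 58.6 CPM and 30.3 to 40.8 CPM, did not overlap; such intervals cover counting error only. The log2 fold changes were -0.12 (95% interval -0.64 to 0.40) in “red-head” and 0.011 (-0.51 to 0.53) in offspring germlines against control, the widest intervals of the 9. With each library left out in turn they ranged from -0.38 to 0.20 and from -0.26 to 0.34, and the sign turned without control replicate 1 in the “red-head” comparison and without control replicate 2 or offspring replicate 1 in the offspring comparison.

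Relative to one another and per exon length, *met-2*, *set-25* and *set-32* kept their order except for the upper pair. The level of *met-2* divided by that of *set-25* was 0.870 and 0.790 in “red-head”, 1.05 and 0.927 in offspring and 0.920 and 0.889 in control libraries. The level of *set-25* was 2.59 to 4.40 times that of *set-32* in each of the 6 libraries.

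Proteins that bind lysine 9 methylation were represented by *hpl-2*, an HP1 homolog on chromosome III, and *lin-61*, an MBT-repeat protein on chromosome I that works in vulval development with the other class B synMuv genes. The gene *hpl-2* had 82.1 and 70.6 CPM in “red-head”, 88.6 and 80.5 in offspring and 75.8 and 86.9 in control libraries. The log2 fold change was -0.081 (95% interval -0.39 to 0.23) in “red-head” against control, 0.060 (-0.25 to 0.37) in offspring against control and -0.14 (-0.45 to 0.17) between “red-head” and offspring germlines. The gene *lin-61* had 107 and 96.2 CPM in “red-head”, 112 and 88.8 in offspring and 109 and 105 in control libraries. The offspring libraries spanned all the others, and *lin-61* had the only negative log2 fold change of the 9 in offspring against control, -0.087 (-0.39 to 0.22). In “red-head” against control it was -0.070 (-0.38 to 0.24).

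The retinoblastoma-like gene *lin-35* on chromosome I had 189.9 and 195 CPM in “red-head”, 171 and 181 in offspring and 183 and 167 in control libraries. Both “red-head” libraries were above the 4 others. The log2 fold change was 0.14 (standard error 0.096, 95% interval -0.086 to 0.36, adjusted p = 0.827) in “red-head” against control, 0.13 (-0.099 to 0.35, adjusted p = 0.693) in “red-head” against offspring and 0.012 (-0.21 to 0.24) in offspring against control in the edgeR test. It kept its sign with each library left out in turn in both comparisons of “red-head” germlines, between 0.077 and 0.20 against control and between 0.080 and 0.16 against offspring. Its exons share 29 nucleotides, or 0.902%, with *hmg-3* on the opposite strand.

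**Figure D2:**
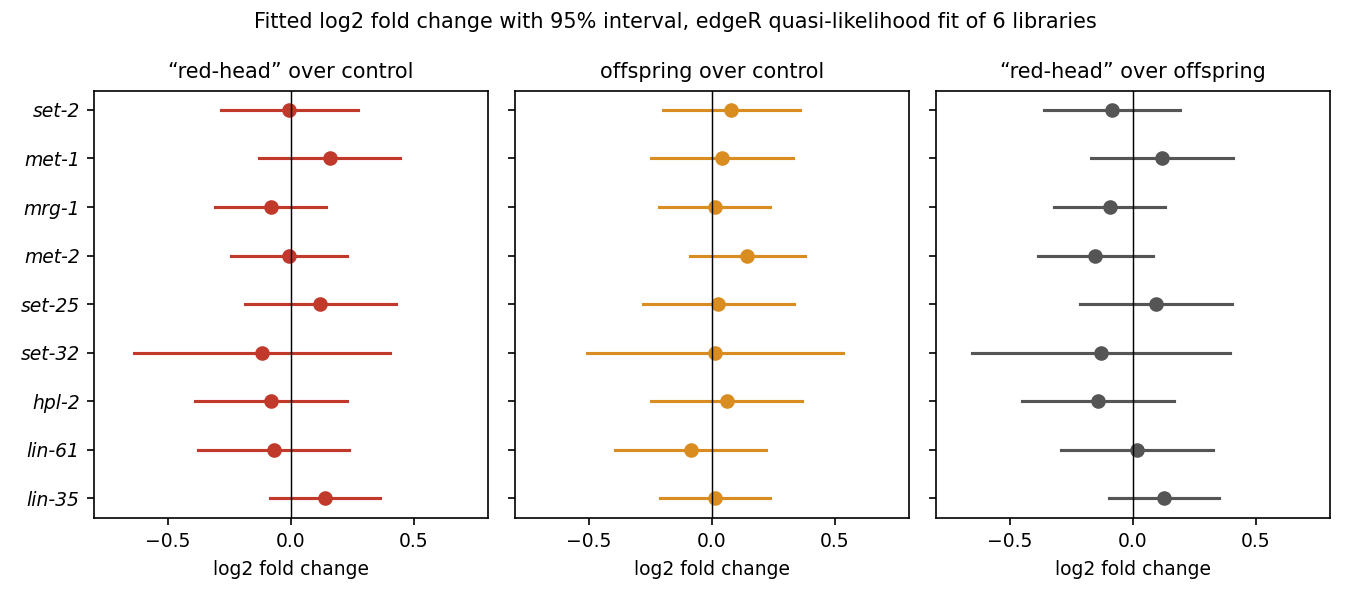
Fitted log2 fold change (points) and 95% interval (lines) of the 9 genes in “red-head” over control, offspring over control and “red-head” over offspring, from 1 edgeR fit of 6 libraries. All 27 intervals cross 0, and those of *set-32* are the widest.

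Across the 9 genes, 3 log2 fold changes were positive in “red-head” against control, 8 in offspring against control and 4 in “red-head” against offspring. Any pair of these comparisons shares the libraries of a group. The medians were -0.0091, 0.025 and -0.086, beside -0.0083, 0.0031 and -0.0064 over all tested genes. The median size of the change, without its sign, was 0.083, 0.040 and 0.12 for the 9, and 0.17, 0.14 and 0.22 for all tested genes. The largest size among the 9 was 0.16, 0.14 and 0.15, and 45.6%, 51.8% and 38.8% of all tested genes changed by no more than that. With *set-32* set aside, the 95% intervals of the fold reached at most from 0.763 to 1.36 in “red-head” against control, from 0.761 to 1.30 in offspring against control and from 0.731 to 1.32 between the generations. These are the outermost bounds over the 8 genes, and single genes had narrower intervals, as given for each.

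Of the 9 genes, 2 (*met-1* and *lin-35*) had both “red-head” libraries above both control libraries, which 18.4% of all tested genes had, and 0 had both below, which 19.6% had. In offspring against control, 1 of 9 (*met-2*) was above, against 16.4% of all tested genes, and 0 were below, against 16.6%. Between “red-head” and offspring germlines 1 of 9 (*lin-35*) was above, against 17.5%, and 2 of 9 (*met-2* and *mrg-1*) were below, against 20.4%. These counts are near the shares of all tested genes.

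The summed level of the 9 was 1640 and 1740 CPM in “red-head”, 1645 and 1766 in offspring and 1681 and 1613 in control libraries. The coefficient of variation over the 6 libraries ran from 4.84% for *mrg-1* to 15.4% for *set-32*, with a median of 8.39%. The median was 15.7% for all tested genes and 9.36% for the 3345 tested genes with a mean CPM between the lowest and the highest of the 9.

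Levels can be compared between genes only per length, so CPM were divided by kilobases of exon. The highest was *mrg-1*, with 125 ± 9.53 CPM per kilobase in “red-head”, 134 ± 0.52 in offspring and 133 ± 3.95 in control libraries (SD, n = 2 each). Then came *set-25*, with 90.0 ± 11.1 in “red-head”, 84.3 ± 11.4 in offspring and 82.7 ± 0.70 in control libraries, and *met-2*, with 74.4 ± 4.15, 82.6 ± 4.17 and 74.8 ± 2.41 in the same groups. Averaged over 6 libraries, *hpl-2* followed with 62.8 CPM per kilobase, *lin-35* with 56.4, *met-1* with 52.1, *lin-61* with 51.8, *set-2* with 40.96 and *set-32* with 26.1. The median of tested protein-coding genes was 34.6 CPM per kilobase, so *set-32* alone of the 9 lay below it, at the 43.1 percentile, and *mrg-1* was at the 90.0 percentile.

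In all 6 libraries *mrg-1* ranked 1 and *set-32* ranked 9. The ranges over libraries were apart between *mrg-1* and *set-25* (a ratio of means of 1.53), between *met-2* and *hpl-2* (1.23) and between *set-2* and *set-32* (1.57). The other 5 pairs of neighbours overlapped, and *met-1* exceeded *lin-61* in only 2 of 6 libraries. With the longest transcript in place of all exons, *hpl-2* was at 76.5 CPM per kilobase and stayed in rank 4, while *met-1* and *lin-61* changed places. With coding length *hpl-2*, at 88.8 CPM per kilobase, ranked 3 and *met-2*, at 81.6, ranked 4, so the order of these genes depends on the length used.

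**Figure D3:**
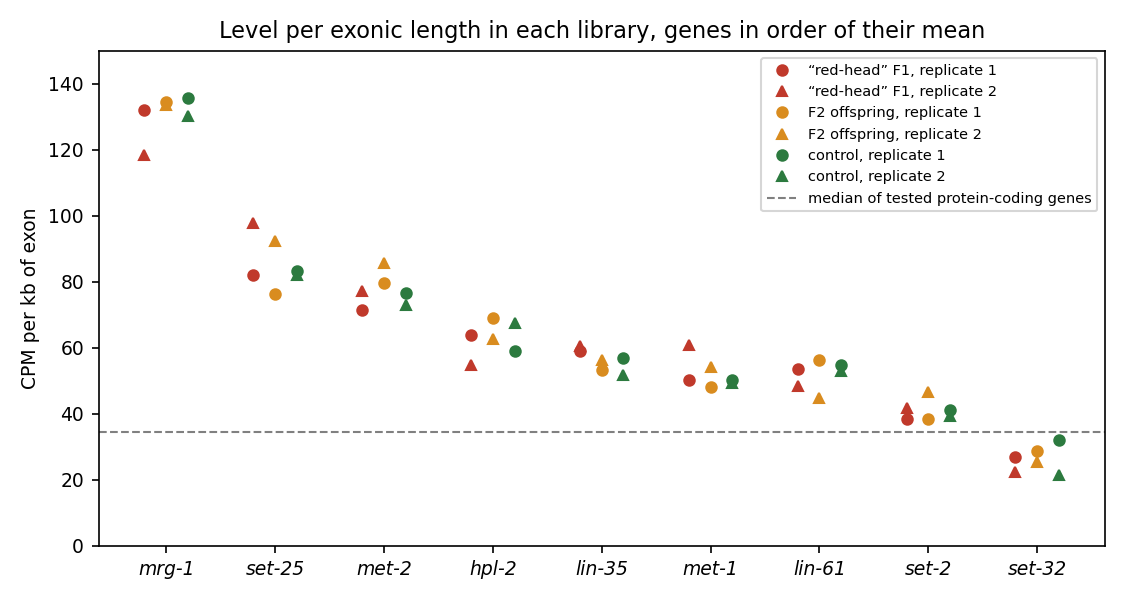
TMM-normalized CPM per kilobase of exon (vertical axis) of the 9 genes in order of their mean, with 1 point per library, coloured by group. A dashed line marks the median of tested protein-coding genes, 34.6 CPM per kilobase; *mrg-1* is on top in all 6 libraries and *set-32* at the bottom.

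The median size of the log2 difference between the 2 replicates of a group was 0.16 in “red-head”, 0.17 in offspring and 0.066 in control for the 9 genes, beside 0.29, 0.21 and 0.17 for all tested genes. These differences split the 9 genes by length. The 5 genes with at least 2800 nucleotides of exon (*met-1*, *set-2*, *met-2*, *lin-35* and *set-25*) were all higher in replicate 2 than in replicate 1 in both the “red-head” and the offspring group, by log2 differences between replicate 1 and replicate 2 of -0.27 to -0.039 and of -0.28 to -0.082. The 4 genes with less than 2000 nucleotides (*lin-61*, *set-32*, *mrg-1* and *hpl-2*) were all higher in replicate 1 in both groups, by 0.15 to 0.27 and by 0.0079 to 0.33. In control, 8 of the 9 were higher in replicate 1, and *hpl-2*, at -0.20, was the exception.

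The split was looked for after these values were seen. Among 891 protein-coding genes of at least 2800 nucleotides, with a mean CPM no lower than that of *set-32*, 62.1% were higher in replicate 2 in both groups and 8.08% were higher in replicate 1 in both. Among 2203 shorter than 2000 nucleotides the shares were 32% and 25.9%. The median log2 difference of the longer genes was -0.12 in “red-head”, -0.12 in offspring and 0.0038 in control libraries, and that of the shorter ones was -0.052, 0.015 and 0.032. The “red-head” and offspring libraries of replicate 2 are the 2 with the fewest gene counts, and they share a tag in their names. The part of depth or tag in this difference was not tested.

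**Figure D4:**
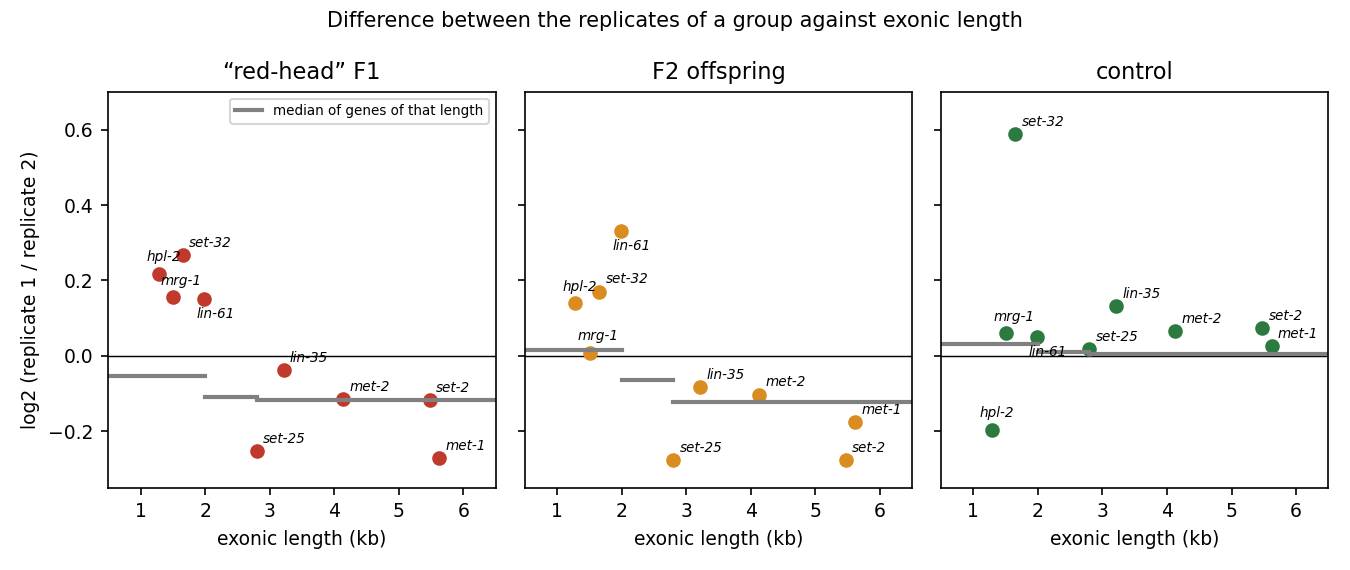
Log2 difference of TMM-normalized CPM between replicate 1 and replicate 2 (vertical axis) of each of the 9 genes against exonic length in kilobases (horizontal axis), in “red-head”, offspring and control groups. Grey lines are medians of tested protein-coding genes of that length; the 5 longer genes lie below 0 in the “red-head” and offspring panels, and above 0 in the control panel.

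Between libraries that share a tag, the differences were of the same order, with 1 library per group and no test. From offspring replicate 1 over control replicate 1 the 9 log2 differences ran from -0.17 (*set-32*) to 0.23 (*hpl-2*), with a median of -0.062, beside 0.0085 over 7908 genes. The median size was 0.093 for the 9 and 0.12 for those genes. From “red-head” replicate 2 over offspring replicate 2 they ran from -0.19 (*set-32*) to 0.16 (*met-1*), with a median of -0.15, beside -0.018 over the same genes. The median size was 0.16 for the 9 and 0.24 for those genes. No tag holds both a “red-head” and a control library, so no difference within a tag can be given for that comparison.

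Over the 6 libraries the profile of *met-1* was closest among the 9 to that of *set-25* (Pearson's r of log2 CPM 0.961) and that of *lin-61* ran most opposite to *set-2* (-0.890). Such profiles share libraries and depth, and both *met-1* and *set-25* are among the longer genes. The tested genes with the highest r were M106.2 for *met-1* (0.996), Y65B4BL.4 for *met-2* (0.995), Y71G12B.10 for *set-25* (0.992), *tbg-1* for *set-32* (0.982), H05L14.2 for *set-2* (0.990), C35D10.8 for *hpl-2* (0.980), T27E4.11 for *lin-61* (0.998), F52C6.4 for *lin-35* (0.978) and B0336.13 for *mrg-1* (0.996). Between 30 and 199 genes had an r above 0.9 with a given one of the 9, and n is 6 for each.

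Enzymes and partners of the 9 were taken from 7 lists with 61 genes, of which 60 were tested and *set-11* was not. The count called at an adjusted p of 0.05 was 0 in each comparison (edgeR's quasi-likelihood test). At an unadjusted p under 0.05, 7 genes passed in “red-head” against control (11.7%, beside 7.65% of all tested genes), 0 in offspring against control (beside 1.29%) and 7 in “red-head” against offspring (11.7%, beside 10.2%). The median log2 fold changes over the 60 were 0.063, -0.011 and 0.030.

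In the DRM and E2F list, 3 of 8 genes passed the unadjusted threshold in both “red-head” comparisons, all with positive fold changes, and none passed the adjusted one. These were *lin-37* and *lin-54*, subunits of the DRM complex, and *efl-1*, an E2F transcription factor. LIN-54 is a subunit that binds DNA. The level of *lin-37* was 229.8 and 669.8 CPM in “red-head”, 181 and 87.4 in offspring and 169.5 and 70.8 in control libraries. Against control its log2 fold change was 1.88 (standard error 0.60, unadjusted p = 0.015, adjusted p = 0.491 in edgeR), and 0.93 without “red-head” replicate 2. The level of *efl-1* was 157 and 225 CPM in “red-head”, 118 and 79.9 in offspring and 126 and 73.9 in control libraries. Its log2 fold change against control was 0.91 (standard error 0.29, adjusted p = 0.501 in edgeR), and 0.59 without control replicate 2. For *lin-54* the levels were 199 and 292 CPM in “red-head”, 188 and 149.8 in offspring and 184 and 144 in control libraries, and the fitted log2 ratio was 0.57 (adjusted p = 0.564 in edgeR, standard error 0.21), or 0.28 without “red-head” replicate 2.

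For all 3 genes replicate 2 was the higher one in “red-head” and the lower one in both other groups. Summed intestine markers were also higher in replicate 2 than in replicate 1 in “red-head” and lower in both other groups. So were those of body wall muscle, at 100.1 and 198 CPM in “red-head”, 216 and 39.1 in offspring and 127 and 71.8 in control libraries, and those of hypodermis, at 19.3 and 41.6 CPM in “red-head”, 46.8 and 19.3 in offspring and 24.2 and 19.02 in control libraries. Summed markers of gonadal sheath and of neurons went the other way in “red-head”, and were lower in replicate 2 in all 3 groups. In “red-head” they were at 79.0 and 24.9 CPM for gonadal sheath and at 13.04 and 11.5 CPM for neurons. The part of these tissues in the 3 genes' values was not tested. DESeq2 called *efl-1* in “red-head” against offspring (adjusted p = 0.040, log2 fold change 0.95) but not against control (adjusted p = 0.064). It gave *lin-37* adjusted p-values of 0.635 against control and 0.596 against offspring. With no filter on low counts, edgeR called all 3 genes in both comparisons. In that setting the standard error of *lin-37* against control was 0.13, beside 0.60 in the reported fit. The other 5 genes of the list stayed above an unadjusted p of 0.05, among them the E2F partner *dpl-1* (log2 fold change -0.046 in “red-head” against control), the histone chaperone *lin-53* (-0.044) and *lin-9* (-0.12), the lowest. In offspring germlines the list ran from -0.15 (*lin-52*) to 0.17 (*lin-37*). Within this complex *lin-35* itself had 0.14 and 0.012 in the 2 comparisons against control.

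In the list of lysine 4 methylation, 11 genes were tested and *set-17*, a SET-domain methyltransferase, passed the unadjusted threshold in “red-head” against control. It had 60.3 and 66.1 CPM in “red-head”, 82.1 and 67.6 in offspring and 84.8 and 85.5 in control libraries, which fitted as log2 -0.44 (adjusted p = 0.467 in edgeR, standard error 0.13). Of the COMPASS subunits around *set-2*, only those picked as direct partners are given here. Against control, *ash-2* was at log2 0.14 in “red-head” and -0.0088 in offspring, *wdr-5.1* at 0.026 and -0.040, and *cfp-1* at 0.030 and -0.052. The extremes were *wdr-5.2*, at 1.00 in “red-head” and 0.50 in offspring but with no library above 3.41 CPM, and *rbbp-5*, at -0.18 in offspring. The 5 lysine 4 demethylation genes had a median of 0.093 in “red-head” and -0.25 in offspring, between -0.11 (*spr-1*) and 0.24 (*lsd-1*) and between -0.43 (*lsd-1*) and 0.16 (*spr-5*).

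The lysine 36 list held *mes-4*, the enzyme that copies the mark independently of transcription. It had 218 and 222 CPM in “red-head”, 216 and 221 in offspring and 208 and 206.5 in control libraries, with log2 fold changes of 0.084 and 0.076 against control. The demethylase gene *jmjd-2* had 176 and 181 CPM in “red-head”, 136 and 159 in offspring and 143 and 157.5 in control libraries, and passed the unadjusted threshold against offspring with a log2 fold change of 0.28 (adjusted p = 0.462 in edgeR). Without offspring replicate 1 it was 0.16, and DESeq2 gave an unadjusted p of 0.076. The other extremes were *set-18*, at -0.32 and -0.38 with at most 2.97 CPM, and *jhdm-1*, at 0.11 in offspring.

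Of the lysine 9 and heterochromatin list, 11 of 12 genes were tested. The MET-2 cofactors *arle-14* and *lin-65* were at log2 -0.39 and 0.15 in “red-head” and at -0.087 and 0.17 in offspring germlines, each against control. The nuclear envelope anchor *cec-4*, a chromodomain protein that binds methylated lysine 9, had 25.3 and 31.2 CPM in “red-head”, 48.2 and 37.1 in offspring and 43.8 and 42.4 in control libraries. Its log2 fold change was -0.62 against control (standard error 0.20, adjusted p = 0.479) and -0.62 against offspring (adjusted p = 0.383) in edgeR. With each library left out in turn it ranged from -0.76 to -0.46 against control and from -0.79 to -0.41 against offspring. Of its exons, 12.6% overlap F32E10.5 on the opposite strand. The paralog of *hpl-2*, *hpl-1*, was scarce, at 2.91 and 2.60 CPM in “red-head”, 2.75 and 0.57 in offspring and 1.88 and 2.35 in control libraries. The extremes were *set-6*, at -1.0 in “red-head” with at most 3.53 CPM, and *cec-8*, at 0.48 in offspring with at most 1.88 CPM.

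The list of synMuv, NuRD and related repressors held 15 tested genes, of which *lin-13* is also in the heterochromatin list. From this list the histone deacetylase gene *hda-3* and the NuRD subunit gene *dcp-66* passed the unadjusted threshold in both “red-head” comparisons. Their log2 fold changes against control were 0.27 (adjusted p = 0.648) and -0.27 (adjusted p = 0.597) in edgeR. Without “red-head” replicate 2 the value of *hda-3* was 0.16. That of *dcp-66* against control ranged from -0.35 to -0.19 with each library left out in turn. DESeq2 gave unadjusted p-values of 0.117 for *hda-3* and 0.136 for *dcp-66*. The extremes were *lin-15B*, at -0.50 in “red-head” and -0.42 in offspring, *lin-40*, at 0.31 in “red-head”, and *mep-1*, at 0.22 in offspring. The 6 lysine 27 and H4 lysine 20 genes ran from -0.16 (*jmjd-1.2*) to 0.34 (*jmjd-3.1*, with at most 3.99 CPM) in “red-head” germlines. In offspring germlines they ran from -0.45 (*utx-1*) to -0.016 (*set-1*), with 0 past the unadjusted threshold in either group. Of the exons of *set-1*, 33.5% overlap *anr-1* on the opposite strand.

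**Figure D5:**
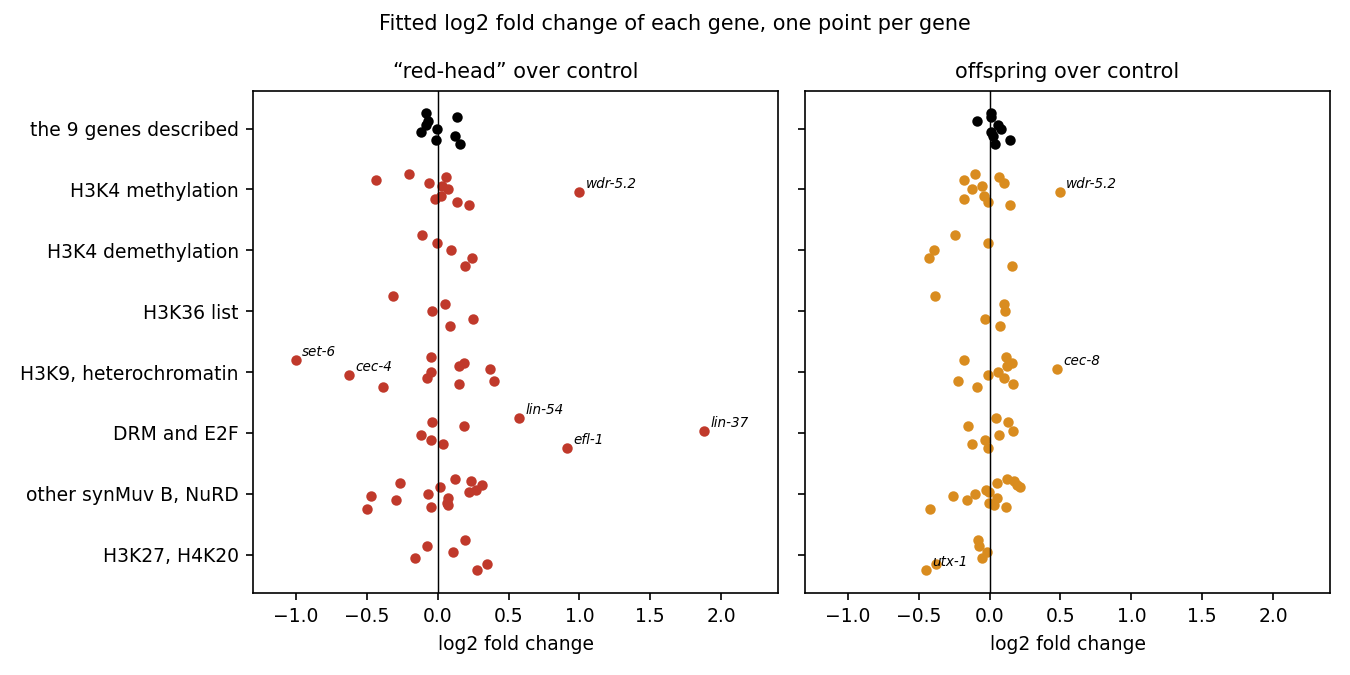
Fitted log2 fold changes (horizontal axes) of the 9 genes (black) and of the 7 related lists, 1 point per tested gene, in “red-head” over control (red) and offspring over control (orange). The 9 genes lie between -0.12 and 0.16, while *lin-37* reaches 1.88 and *set-6* -1.0 in “red-head” germlines; 0 of the genes shown passed an adjusted p of 0.05 in the fit plotted, which filters low counts.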

How the data were processed

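Germline RNA was depleted of ribosomal RNA and made into libraries with a kit that does not mark strand. TopHat2 was used by the authors for alignment to the WS220 transcriptome, and the deposited values are raw counts from HTSeq. Rows that name no gene were dropped before scaling; they held 10.7% to 15.2% (no gene) and 1.59% to 2.15% (ambiguous) of each table. The authors' table of DESeq2 comparisons, which holds mean levels, log2 fold changes and adjusted p-values, was not used. Labels gave each library its group and replicate number, and the study calls replicates biological. The p-values set a difference between groups against the spread between these libraries, which edgeR estimates partly from all tested genes.

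Counts were filtered with filterByExpr (minimum count 10), scaled by TMM and fitted for all 6 libraries with glmQLFit in edgeR 4.0.16 (limma 3.58.1, R 4.3.3); 3 contrasts were tested with glmQLFTest, with Benjamini-Hochberg adjustment over 8117 genes. The study used DESeq2, kept here as an alternative (version 1.42.0). The fit was tested on 3 simulated data sets with 200 genes changed in each. Standard errors and 95% intervals were derived from the fold change and its F statistic. Exon lengths, overlaps and chromosomes came from the Ensembl annotation of WBcel235, whose coordinates are not printed because the counts were made on WS220.

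The 9 genes, the 7 lists of related genes and the marker lists (germline, oogenesis, spermatogenesis, intestine, body wall muscle, hypodermis, neuron and gonadal sheath) were chosen with earlier results of these data known. Named list genes were the highest and lowest of each list against control, those with an unadjusted p under 0.05 and 10 direct partners; *hpl-1*, whose counts are low, is among them. Each of the 9 was paired with the tested gene of highest r. Alternatives were DESeq2, no filter, a minimum of 10 counts per library, RLE scaling, no scaling beyond library size, fits of the 4 libraries compared, a replicate block and each library left out in turn.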

Additional observations from a re-analysis of the deposited data

How the results depend on the processing

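None of the 9 genes was called in any comparison under any alternative run. The lowest adjusted p among them was 0.374, in “red-head” against offspring with library size only, where 1 of the 9 (*lin-35*, at 0.23) passed an unadjusted p of 0.05, as did 989 of all 8117 genes.

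The number of genes called over the whole table did depend on the processing; the cause was not tested. In “red-head” against control it was 0 in the reported fit, 355 with no filter (179 higher, 176 lower), 89 with DESeq2 (60 and 29), 8 with the 4 libraries compared (7 and 1) and 0 to 54 with each library left out, the highest without “red-head” replicate 2. In offspring against control it was 10, and 4 with library size only, 68 with no filter (44 and 24), 17 with DESeq2 and 4 to 14 with each library left out. In “red-head” against offspring it was 1, and 6 with RLE scaling, 3 with library size only, 383 with no filter (158 and 225), 6 with at least 10 counts in every library, 128 with DESeq2 (54 and 74), 5 with the 4 libraries compared and 0 to 69 with each library left out, again highest without “red-head” replicate 2.

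With the replicate number as a block, 7, 13 and 7 genes were called and 0 of the 9; the deviations of same-numbered libraries had correlations of -0.091 for “red-head” and control, 0.39 for offspring and control and 0.034 for “red-head” and offspring, and the labels do not say that a number marks a shared batch. Of the same-numbered libraries, offspring and control replicate 1 and “red-head” and offspring replicate 2 share a tag of unknown meaning. The numbers were not treated as pairs because the labels do not name them as such.

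Signs of values close to 0 turned. In “red-head” against control, *met-2* was 0.0049 with RLE scaling, 0.015 with library size only and 0.0051 with the 4 libraries compared, and *set-2* was 0.0073, 0.018 and 0.0077 under these and 0.0019 with DESeq2. Library size only put the median of all genes at -0.075 in offspring against control, beside 0.0031 in the reported fit. For “red-head” against offspring it put that median at 0.10, beside -0.0064. Under it, offspring against control gave -0.040 for *met-1*, -0.055 for *set-25*, -0.063 for *set-32*, -0.0013 for *set-2*, -0.019 for *hpl-2*, -0.067 for *lin-35* and -0.067 for *mrg-1*, and “red-head” against offspring gave 0.019 for *set-2* and 0.014 for *mrg-1*. So of the 8 positive signs in offspring against control, 1 (*met-2*) stayed positive under that setting.

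With each library left out in turn, log2 fold changes in “red-head” against control ranged from -0.19 to 0.020 for *hpl-2*, -0.14 to 0.0018 for *lin-61*, 0.023 to 0.30 for *met-1*, -0.061 to 0.058 for *met-2*, -0.16 to -0.0065 for *mrg-1*, -0.059 to 0.062 for *set-2*, -0.0035 to 0.25 for *set-25* and -0.38 to 0.20 for *set-32*. In offspring against control they ranged from -0.036 to 0.15 for *hpl-2*, -0.057 to 0.082 for *lin-35*, -0.27 to 0.062 for *lin-61*, -0.049 to 0.13 for *met-1*, 0.092 to 0.20 for *met-2*, -0.024 to 0.044 for *mrg-1*, -0.063 to 0.21 for *set-2*, -0.12 to 0.16 for *set-25* and -0.26 to 0.34 for *set-32*. In “red-head” against offspring they ranged from -0.14 to 0.19 for *lin-61*, -0.018 to 0.27 for *met-1*, -0.22 to 0.050 for *set-2* and -0.045 to 0.23 for *set-25*, and kept their sign for the other 5.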
